A study of Mus musculus with 2 samples.

Results

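Expression of 10 genes of Toll-like receptor signalling was examined in mouse acute myeloid leukaemia cells, in 2 libraries, the WT-labelled library of wild-type cells and the P2X1-KO-labelled library of cells said to lack the ATP-gated channel P2X1. The genes were taken by symbol from a list of 8 Toll-like receptors (Tlr1, Tlr2, Tlr4, Tlr6, Tlr7, Tlr8, Tlr9 and Tlr13) with the co-receptor gene Cd14 and the adaptor gene Myd88. All 10 were present among the 46095 entries of the count table. Both libraries came from C57BL/6 mice with a stated age of 8 weeks, and the cells were sorted from bone marrow for Mac1 and KIT, a fraction the labels call leukaemia-initiating. The genotype fields read wild type and P2x1-KO. The protocol text adds the names P2X1-Scr and P2X1-KD, and the labels do not settle whether a knockout or a knockdown was used. The oncogene driving the leukaemia and the number of animals behind each library are details that the sources used here do not give.

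Toll-like receptors are membrane proteins that recognise microbial molecules. TLR1, TLR2, TLR4 and TLR6 act mainly at the cell surface on lipopeptides and lipopolysaccharide (LPS), whereas TLR7, TLR8, TLR9 and TLR13 sit in endosomes and bind RNA or DNA. CD14 hands LPS to the TLR4 complex. Every receptor studied here signals through MyD88, which recruits IRAK kinases and leads to activation of NF-kB. In the myeloid lineage these receptors are typical of monocytes, macrophages and neutrophils, and some are already present on progenitors.

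The WT library held 14658620 counts and the P2X1-KO library 9447894, so counting error was smaller in the former for a given level. With 1 library per group there was no replicate error and no test was possible. Each ratio below therefore carries an exact 95% interval for counting error alone. P2rx1, the gene named in the labels, had 27 counts in the WT-labelled library and 45 in the P2X1-KO-labelled library, 1.73 and 5.07 counts scaled to a common library size (CPM). The targeted transcript was thus not lower in the P2X1-KO-labelled library, and every direction below is one between 2 libraries as labelled. Transcripts of the sort markers were present in both, with Itgam, which encodes the alpha chain of Mac1, at 307 and 504 CPM and Kit at 13.3 and 19.9 CPM.

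Of the 10 genes, 6 stood at least 2-fold higher in the P2X1-KO-labelled library and 4 were within 2-fold of equal, with 0 at least 2-fold lower. The 6 were Tlr2, Tlr7, Tlr8, Tlr9, Tlr13 and Cd14, and the 4 were Tlr1, Tlr4, Tlr6 and Myd88. All 10 reached a mean of 1 CPM over both libraries, the level set for a gene to be counted. Of 13382 genes at that level, 15.5% were at least 2-fold higher in the P2X1-KO-labelled library and 14% at least 2-fold lower, beside 6 and 0 of these 10. For 5 of the 6 the whole interval lay beyond 2-fold, which held for 10.2% of all genes. The exception was Tlr9, the least abundant. The median difference of the 10 genes was 1.47 on the log2(CPM + 0.5) scale, against -0.06 for all genes counted. Genes past 2-fold in either direction split into 52.6% higher and 47.4% lower with TMM scaling (trimmed mean of M values), and into 40.9% and 59.1% with total counts.

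**Figure D1:**
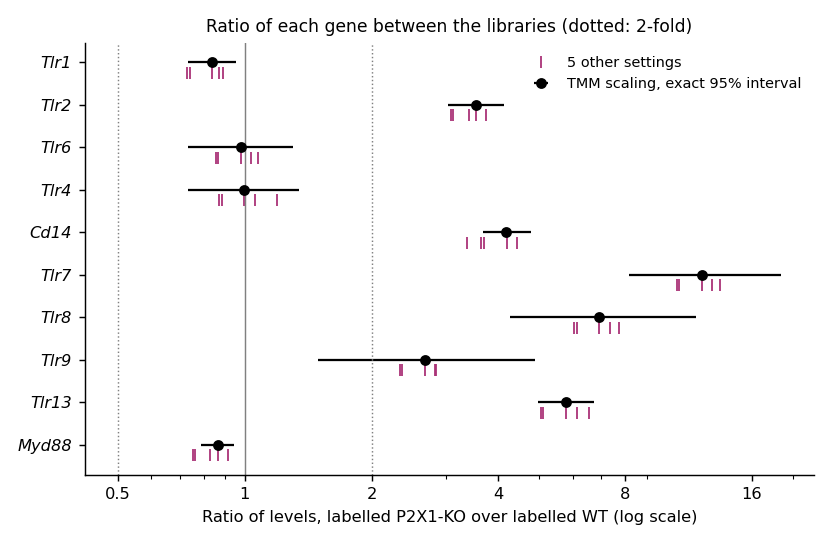
Ratio of each gene's level in the P2X1-KO-labelled library to that in the WT-labelled library (log axis). Points are TMM-scaled ratios with exact 95% intervals for counting error, purple ticks are the ratios under 4 other scalings and a length and GC correction, and dotted lines mark 2-fold. Tlr2, Tlr7, Tlr8, Tlr9, Tlr13 and Cd14 stay right of 2-fold under every tick, and Tlr1, Tlr4, Tlr6 and Myd88 stay between 0.730 and 1.19.

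The widest ratios of the 10 genes were those of 3 endosomal receptors of nucleic acids, Tlr7, Tlr8 and Tlr13. Tlr7, a receptor for single-stranded RNA, had 28 counts in the WT-labelled library and 194 in the P2X1-KO-labelled library. This was 1.80 against 21.8 CPM, a 12.2-fold higher level (95% interval 8.16 to 18.8). Tlr8, a close relative of Tlr7, had 21 and 83 counts, or 1.35 and 9.34 CPM, and was 6.94-fold higher (4.26 to 11.8). Tlr13, which in mice recognises a sequence of bacterial ribosomal RNA, had 222 and 732 counts, or 14.2 and 82.4 CPM, a 5.79-fold difference (4.97 to 6.76). The receptor for unmethylated CpG DNA, Tlr9, had only 21 and 32 counts, or 1.35 and 3.60 CPM, and its ratio of 2.68 had an interval from 1.496 to 4.88. All 4 endosomal receptor genes were thus higher, by amounts from below 3-fold to above 12-fold, with Tlr13 contributing most of the reads. Their summed level was 18.7 CPM in the WT-labelled library and 117 CPM in the P2X1-KO-labelled library, 6.26-fold higher (5.49 to 7.15).

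Of the lipopeptide receptors at the cell surface, Tlr2 was higher and its partners were not. TLR2 pairs with TLR1 to bind triacylated lipopeptides and with TLR6 to bind diacylated ones. Tlr2 had 257 counts in the WT-labelled library and 517 in the P2X1-KO-labelled library, or 16.5 and 58.2 CPM, a 3.53-fold difference (3.04 to 4.12). Tlr1 had 709 and 338 counts, or 45.5 and 38.1 CPM, and was 1.20-fold lower (1.05 to 1.36). Tlr6 had 140 and 78 counts, or 8.98 and 8.78 CPM, a ratio of 0.978 whose interval from 0.732 to 1.30 included no difference. The stoichiometry of the transcripts therefore differed between the libraries, as measured by ratios within a library that need no scaling between them. Per kilobase of exon, Tlr1 stood at 2.49 times Tlr2 (2.15 to 2.88) in the WT-labelled library and at 0.589 times (0.512 to 0.677) in the P2X1-KO-labelled library. The ratio of Tlr6 to Tlr2 was 0.441 and 0.122 in the same order, 3.61 times smaller in the P2X1-KO-labelled library (2.61 to 5.02). Between the 2 alternative partners the ratio differed by less than counting error, with Tlr6 at 0.177 times Tlr1 in the WT-labelled library and 0.207 times in the other, and the interval of the change, 0.848 to 1.60, included 1.

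**Figure D2:**
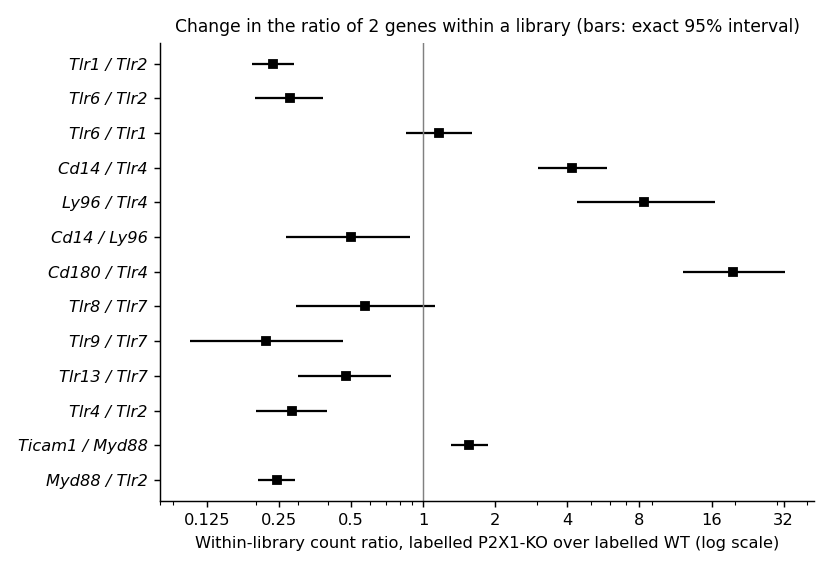
Ratio of 2 genes' counts within each library, given as the ratio in the P2X1-KO-labelled library over that in the WT-labelled library (log axis, bars are exact 95% intervals). Of 13 pairs, 11 have an interval that leaves out 1, and the pairs Tlr6 with Tlr1 and Tlr8 with Tlr7 do not. The intervals cover counting error only. Several pairs share a gene, and a pair of a higher gene with a level gene restates the ratios of the single genes.

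In the LPS receptor group, Cd14 was higher while Tlr4 was level. Cd14 (minus strand of chromosome 18, 36725067 to 36726798, mm10) had 330 and 786 counts. Its level was 21.2 CPM in the WT-labelled library and 88.5 CPM in the P2X1-KO-labelled library, 4.18-fold higher (3.67 to 4.77). Tlr4 had 125 and 71 counts, which at these depths is 8.02 and 7.99 CPM, a ratio of 0.997 (0.734 to 1.35). Ly96 encodes MD-2, the protein that binds LPS on the TLR4 ectodomain. It had 16 and 76 counts and was 8.34-fold higher (4.82 to 15.3). Cd14 thus stood at 8.47 times Tlr4 per kilobase in the WT-labelled library and at 35.5 times in the P2X1-KO-labelled library, a 4.19-fold difference in the ratio (3.02 to 5.85). Ly96 stood at 0.697 and 5.83 times Tlr4 in the same order, and relative to Cd14 it was also more abundant in the P2X1-KO-labelled library, since the ratio of Cd14 to Ly96 was 12.2 and 6.10. Lbp, whose product carries LPS to CD14, differed the other way, at 264 and 178 CPM, 1.48-fold lower (1.40 to 1.57). Cd180, a TLR4 relative without the intracellular signalling domain, and Ly86, which encodes its MD-2-like partner, had the pattern of Ly96. Cd180 had 32 and 358 counts and was 19.6-fold higher (13.7 to 29.2), and Ly86 had 290 and 995 counts and was 6.02-fold higher (5.28 to 6.89).

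The adaptor gene Myd88 lay within 2-fold. It had 1467 counts in the WT-labelled library and 721 in the P2X1-KO-labelled library, or 94.1 and 81.2 CPM, and was 1.16-fold lower (1.06 to 1.27). That interval leaves out no difference, but it covers counting error alone, and under the 4 other scalings and the length and GC correction the ratio ran from 0.752 to 0.914. The transcript of the adaptor therefore did not follow that of the 6 higher receptors and co-receptor. Per kilobase, Myd88 stood at 6.68 times Tlr2 in the WT-labelled library and at 1.63 times in the P2X1-KO-labelled library. In level and difference the closest named genes at a mean of at least 5 CPM were Cdk16, Casc3 and Cebpz, each within 0.03 log2 units of Myd88 over the 2 libraries. For Tlr7 they were Nxpe4, Itga1 and Cyp4v3, at distances of 0.14, 0.17 and 0.30 log2 units. With only 2 libraries this likeness is a matter of 2 numbers per gene.

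Levels can be compared between genes only per length, here as CPM per kilobase of annotated exon (RPKM). In the WT-labelled library, Myd88 was the most abundant at 36.5 RPKM. Tlr1 at 13.6 and Cd14 at 12.2 RPKM followed, with intervals that overlapped. Below them came Tlr2 at 5.47, Tlr13 at 3.31, Tlr6 at 2.41 and Tlr4 at 1.44 RPKM, each clear of its neighbours. Tlr7, Tlr9 and Tlr8 formed the bottom of the order at 0.440, 0.387 and 0.376 RPKM and could not be ranked among themselves. In the P2X1-KO-labelled library the order began with Cd14 at 51.1 RPKM, ahead of Myd88 at 31.5. Tlr2 at 19.3 and Tlr13 at 19.1 RPKM overlapped, and Tlr1, the second in the WT-labelled library, was the fifth with 11.4 RPKM. Tlr7 at 5.35 RPKM was clear of its neighbours, whereas Tlr8 at 2.61 overlapped with Tlr6 at 2.36, and Tlr4 at 1.44 with Tlr9 at 1.04 RPKM.

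**Figure D3:**
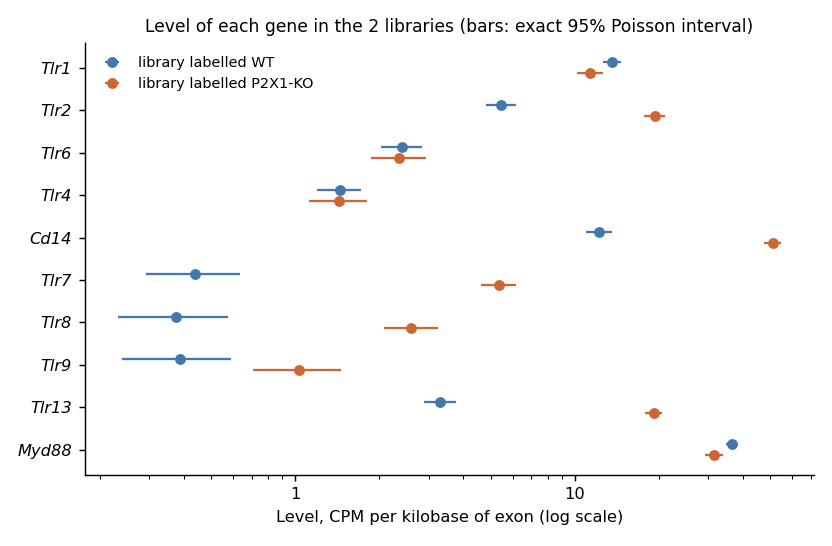
Level of each of the 10 genes as CPM per kilobase of exon in the WT-labelled library (blue) and the P2X1-KO-labelled library (orange), on a log axis with exact 95% Poisson intervals. The points of Tlr4 and of Tlr6 coincide between the libraries, while those of Tlr7 are farthest apart, at 0.440 and 5.35.

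The make-up of the receptor pool differed accordingly. Tlr1 accounted for 49.6% of the summed per-kilobase level of the 8 receptors in the WT-labelled library and for 18.2% in the P2X1-KO-labelled library. Tlr2 accounted for 19.9% and 30.8%, and Tlr13 for 12.1% and 30.6%. The share of the 4 endosomal receptors was 16.5% in the WT-labelled library and 44.9% in the other. Counted as reads without regard to length, these 4 made up 292 of 1523 receptor reads, 19.2% (exact 95% interval 17.2 to 21.2), and 1041 of 2045, 50.9% (48.7 to 53.1). Within the endosomal group the ratio of Tlr8 to Tlr7 differed by a factor of 0.570, with an interval that included 1 (0.294 to 1.12). Tlr9 relative to Tlr7 was 4.55 times smaller in the P2X1-KO-labelled library (2.16 to 9.41), and Tlr13 relative to Tlr7 was 2.10 times smaller (1.36 to 3.33).

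**Figure D4:**
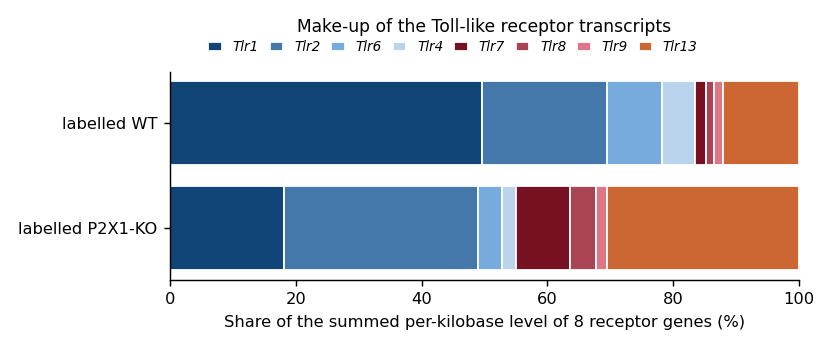
Share of each receptor gene in the summed per-kilobase level of the 8 Toll-like receptor genes, for each library. Surface receptors are in blue and endosomal receptors in red and orange, and the endosomal share is 16.5% in the WT-labelled library and 44.9% in the P2X1-KO-labelled library.

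Some of the genes lie side by side in the genome or share sequence, which bears on how reads were assigned. Tlr7 (167304929 to 167330558) and Tlr8 (167242696 to 167264329) are neighbours on the minus strand of the X chromosome, which also carries Tlr13 (106143204 to 106160493, plus strand). These 3 X-linked genes were all at least 2-fold higher in the P2X1-KO-labelled library, beside 15.5% of all genes counted. X-linked genes as a set were not examined. The other receptor genes lie apart, with Tlr2 on chromosome 3 (83836272 to 83841767, minus strand), Tlr4 on chromosome 4 (66827584 to 66930284, plus strand) and Tlr9 on chromosome 9 (106222598 to 106226883, plus strand). Tlr1 (64924679 to 64933563) and Tlr6 (64952031 to 64960097) are neighbours on the minus strand of chromosome 5, and neither reached 2-fold. The annotated transcripts of Tlr1 and Tlr6 had 454 windows of 50 bases in common, 13.6% of those of Tlr1 and 12.3% of those of Tlr6, so part of their reads could have been assigned to either. Tlr2, Tlr7, Tlr8, Tlr9, Tlr13 and Cd14 shared 0 such windows with any other annotated gene, and Tlr4 shared 12. Myd88 (minus strand of chromosome 9, 119335934 to 119341411) overlaps Acaa1a on the opposite strand over 290 exonic bases, 11.3% of its exon length. Acaa1a, a peroxisomal thiolase gene, was 2.71-fold higher (2.42 to 3.03). The sources used here do not state whether counting used strand, so reads from the overlap cannot be told apart. Of genes within 10 kb, Twf2 beside Tlr9 was 2.28-fold higher (2.15 to 2.42), Alas1, also beside Tlr9, 1.64-fold higher, Fam114a1 beside Tlr6 1.28-fold higher (0.945 to 1.72) and Tmco6 near Cd14 1.12-fold higher (0.934 to 1.34).

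The 4 remaining mouse Toll-like receptor genes were at or near the limit of detection. Tlr3, Tlr11 and Tlr12 had 0 counts in both libraries. Their exact Poisson intervals reached 0.237 CPM in the WT-labelled library and 0.415 CPM in the P2X1-KO-labelled library. Tlr5, which encodes the flagellin receptor, had 2 and 16 counts and a ratio of 14.0 with an interval from 3.30 to 126, and its mean stayed under 1 CPM. Tlr3 is the receptor that works without MyD88, through the adaptor TRIF.

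The promoters of several of the genes are shown because members that stood higher together can be compared in sequence with a member that did not. RefSeq windows on GRCm38.p6, from 250 bases before to 50 after the annotated start, were found for 7 of the 10 genes, and none for Tlr4, Tlr7 and Cd14. The hexamer GAGGAA, the core of sites bound by the myeloid factor PU.1 and other ETS proteins, was searched on both strands. It occurred in the windows of Tlr8, Tlr9 and Tlr13, which are the endosomal receptors with a window. It also occurred in 1 of the 2 windows of Tlr1 and in none of those of Tlr2, Tlr6 and Myd88. Of all 32817 windows, 28.3% held it. The consensus of NF-kB was found in the window of Tlr2, at 3 positions, 2 of them overlapping, and in 8.46% of all windows. C/EBP, AP-1, ISRE (interferon response element), TATA and E-box patterns were searched as well. C/EBP matched in Tlr6, Tlr8 and Tlr13 (10.8% of all windows), and ISRE in Tlr6, Tlr8 and Myd88 (8.55%). AP-1 matched in Tlr9 (7.81%), TATA in Tlr6, Tlr8 and Myd88 (13.6%), and the E-box in Tlr1, Tlr2, Tlr9, Tlr13 and Myd88 (72.3%). Sequences are written from 5′ to 3′ on the strand of the gene, up to the most upstream annotated start, with GAGGAA or its reverse complement TTCCTC in capitals in the lines of Tlr8, Tlr9, Tlr13 and Tlr1 and the overlapping NF-kB matches in capitals in the line of Tlr2, whose other match lies beyond the stretch shown.
Tlr8, chrX:167264330-167264579, minus strand: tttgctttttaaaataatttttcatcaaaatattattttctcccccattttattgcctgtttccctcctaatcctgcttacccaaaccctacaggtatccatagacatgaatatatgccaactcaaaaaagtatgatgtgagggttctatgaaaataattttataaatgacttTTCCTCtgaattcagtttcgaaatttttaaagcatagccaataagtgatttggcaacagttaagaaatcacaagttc
Tlr9, chr9:106222348-106222597, plus strand: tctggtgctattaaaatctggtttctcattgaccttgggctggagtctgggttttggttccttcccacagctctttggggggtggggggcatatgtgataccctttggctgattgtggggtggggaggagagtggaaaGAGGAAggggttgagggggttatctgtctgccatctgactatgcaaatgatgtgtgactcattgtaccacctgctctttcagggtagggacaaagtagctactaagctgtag
Tlr13, chrX:106143025-106143203, plus strand: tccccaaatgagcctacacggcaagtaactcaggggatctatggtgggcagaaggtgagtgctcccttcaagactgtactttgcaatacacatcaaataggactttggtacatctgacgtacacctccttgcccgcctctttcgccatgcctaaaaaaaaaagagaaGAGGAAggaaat
Tlr1, chr5:64933564-64933808, minus strand: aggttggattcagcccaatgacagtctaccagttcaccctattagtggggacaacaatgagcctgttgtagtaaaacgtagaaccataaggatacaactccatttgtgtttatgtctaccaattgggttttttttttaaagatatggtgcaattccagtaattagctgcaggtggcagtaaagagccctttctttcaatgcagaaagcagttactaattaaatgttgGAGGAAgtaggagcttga
Tlr2, chr3:83841768-83841858, minus strand: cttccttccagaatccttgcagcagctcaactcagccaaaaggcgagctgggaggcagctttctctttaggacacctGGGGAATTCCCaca
The hexamer began 77 bases before the RefSeq start in Tlr8, 112 before it in Tlr9, 83 in Tlr13 and 23 in Tlr1. A second match in the Tlr9 window, on the opposite strand 12 bases after the start, lies beyond the stretch shown. The hexamer was therefore present in genes with higher levels and in a gene that lay within 2-fold. A match of letters is a description and no evidence of binding.

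Genes that work with the receptors differed in part. Of 18 accessory and trafficking genes found in the table, 17 were counted. In the P2X1-KO-labelled library 8 of these stood at least 2-fold higher and 0 were lower by that margin, beside 15.5% and 14% of all genes counted. The median log2 difference was 0.99, against -0.06 for all genes. At a mean of at least 5 CPM, 6 of the list were at least 2-fold higher, beside 12.1% of all genes at that level. Besides Cd180, the largest differences in this list by the nearer bound of the interval were those of cathepsin S (Ctss, 8.64-fold, 8.05 to 9.28) and legumain (Lgmn, 8.80-fold, 6.87 to 11.4), proteases of the endosome and lysosome that can cleave endosomal receptors. Unc93b1, the chaperone that carries the nucleic acid receptors to endosomes, was at 263 and 477 CPM, 1.81-fold higher (1.74 to 1.89). The folding factors needed by most Toll-like receptors were closer still to equal, with Cnpy3 at 161 and 206 CPM and Hsp90b1 at 454 and 465 CPM.

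Of 5 other adaptors, 4 were counted, and all 4 had ratios within 2-fold, as Myd88 did. Tirap, the bridge from TLR2 and TLR4 to MyD88, was at 38.4 and 39.0 CPM (ratio 1.01, 0.886 to 1.16). Ticam1, which encodes TRIF, was at 26.3 and 35.4 CPM and 1.34-fold higher (1.16 to 1.56). The ratio of Ticam1 to Myd88 was accordingly 1.56 times larger in the P2X1-KO-labelled library (1.31 to 1.86). Ticam2 had 15 and 14 counts and a ratio of 1.64 whose interval, 0.733 to 3.64, reached past 2-fold. Pik3ap1 was at 108 and 102 CPM. Sarm1, with 23 and 2 counts, was 6.55-fold lower (1.62 to 57.3) but stayed under the mean of 1 CPM.

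Downstream of MyD88, 1 of 19 kinases and ubiquitin ligases was at least 2-fold higher, 2 were lower and 16 lay between (median -0.41), where 15.5% of all genes were higher and 14% lower. The higher gene was Map3k8, the kinase TPL2 that feeds the ERK pathway, at 6.91-fold (5.03 to 9.66). Traf6, the ubiquitin ligase engaged by IRAK proteins, was 2.23-fold lower (1.97 to 2.54) and Traf3 2.06-fold lower (1.87 to 2.27), while Tab1 was 1.99-fold lower. With total counts in place of TMM scaling, 5 genes of this list were at least 2-fold lower, beside 18.4% of all genes counted. Irak4 and Irak1, which encode IRAK kinases, were at 71.5 and 73.1 CPM and at 380 and 251 CPM. Both were named after their values were seen. Among 9 transcription factors 3 were at least 2-fold higher and 0 lower (median 0.56). These were Irf8 at 6.58-fold (5.89 to 7.36), Relb at 3.87-fold and Nfkb2 at 2.97-fold. Rela and Nfkb1, which form the canonical NF-kB dimer and were also named after their values were seen, were at ratios of 1.02 and 1.05.

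Of 19 genes that restrain the pathway, 4 were higher by at least 2-fold and 1 was lower by as much (median 0.31), and the share higher was near the 15.5% of all genes. Irak3, an inactive IRAK kinase that holds signalling back, was 5.26-fold higher (4.46 to 6.21), Sigirr 2.46-fold and Nfkbie 2.54-fold higher. Socs1, an inhibitor of cytokine and Toll-like receptor signals, was 2.59-fold lower (1.99 to 3.40). The genes for IL-1 family receptors, which share MyD88, differed in both directions. Of 4 counted, 2 were at least 2-fold lower and 1 higher (median -1.17), a list too short to set against the 14% and 15.5% of all genes. Il18rap was 2.88-fold lower (2.56 to 3.25), Il1rl2 3.32-fold lower (2.31 to 4.90) and Il1rap 1.80-fold lower (1.42 to 2.31). Il1r1, with 8 and 15 counts, was 3.29-fold higher (1.31 to 8.96). At a mean of at least 5 CPM, 0 genes of this list were at least 2-fold higher and 2 were lower. The shares of all genes at that level were 12.1% and 10.6%. Il18r1, under the mean of 1 CPM, had 10 and 0 counts and was named after its values were seen.

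Of the cytokine and chemokine genes that the pathway can induce, many had no reads. Tnf, Il1a, Il6, Il10, Il12b and Acod1 had 0 counts in both libraries. Of 20 listed genes 10 were counted, with 5 at least 2-fold higher and 0 lower (median 0.88). The count of higher genes was 3 with total counts and 3 at a mean of at least 5 CPM. With no floor on level 3 genes were lower, and these were named after their values were seen. Ptgs2, a prostaglandin synthase gene, had 20 and 0 counts. It was 3.80-fold lower with the 0 set to 3 counts, and the exact interval for counting error began at 2.81-fold lower. Nos2 had 5 and 0 counts and Cxcl1 had 2 and 0 counts. Lcn2, which is also a granule protein gene of neutrophils, was at 273 and 1370 CPM, 5.02-fold higher (4.85 to 5.20). Il1b had 39 and 91 counts and was 4.10-fold higher (2.79 to 6.12), and Il12a had 16 and 40 counts and was 4.39-fold higher (2.40 to 8.39). Over all these lists together, without the 10 genes themselves, 22 of 82 counted genes (26.8%) were higher by at least 2-fold and 5 (6.10%) lower, beside 15.5% and 14% of all genes counted.

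**Figure D5:**
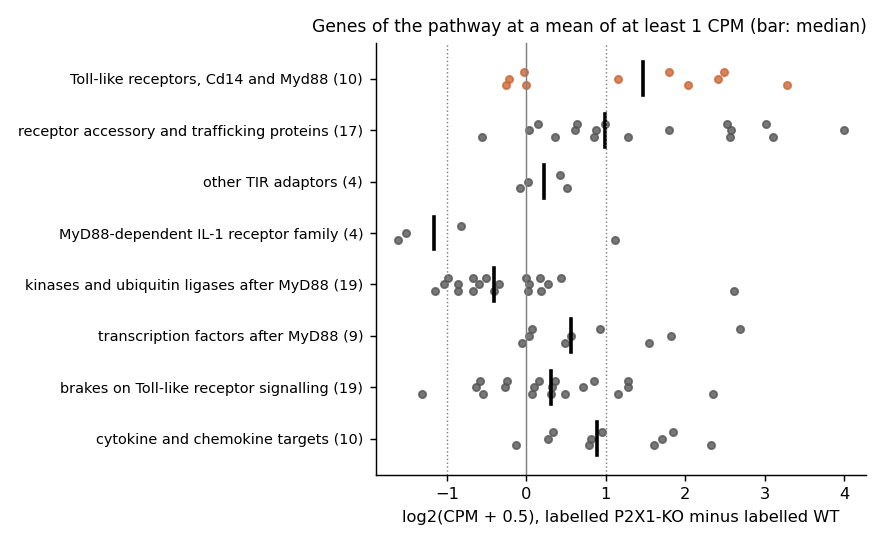
Difference in log2(CPM + 0.5) between the P2X1-KO-labelled library and the WT-labelled library for each counted gene of the pathway, by list, with the number of genes in parentheses. Vertical bars are medians and dotted lines mark a log2 difference of 1 in either direction, and the 10 genes described here (orange) have the highest median, 1.47.

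Most marker genes of mature myeloid cells differed in the same direction as the 6 higher genes. Of 11 counted monocyte and macrophage markers, 10 were at least 2-fold higher in the P2X1-KO-labelled library, beside 15.5% of all genes counted. Among them, C1qa, C1qb and C1qc had 3, 5 and 10 counts in the WT-labelled library and 116, 278 and 118 in the other. They reached the mean of 1 CPM only through the P2X1-KO-labelled library. The list summed to 709 CPM in the WT-labelled library and 1548 CPM in the other. The exception, Ly6c2, made up most of the former sum, at 546 and 497 CPM, 1.10-fold lower (1.06 to 1.14). Mrc1, with 3 and 0 counts, stayed under the mean of 1 CPM. Of 10 neutrophil markers 9 were at least 2-fold higher, with sums of 3218 and 12758 CPM. The exception was Ly6g, with 109 and 36 counts, 1.72-fold lower (1.17 to 2.59). The markers of the sorted leukaemia cells (Itgam, Kit, Hoxa9 and Meis1) were all within 2-fold. Plasmacytoid dendritic cells and B cells also express Tlr7 and Tlr9. Markers of the former summed to 42.0 and 93.3 CPM, with Siglech, Ccr9 and Klk1 at 0 counts in both libraries. Bst2 was at 17.1 and 53.9 CPM, and Tcf4 at 24.9 and 39.4 CPM, 1.58-fold higher (1.37 to 1.83). Markers of B cells summed to 16.6 and 49.6 CPM, with Ms4a1, Pax5, Vpreb3 and Ebf1 at 0 counts in both libraries and Cd79b at 229 and 421. Markers of T and NK cells summed to 0.128 and 0.901 CPM and those of erythroid cells to 0.962 and 2.14 CPM. For dendritic cells the sums were 78.0 and 66.8 CPM, and for megakaryocytes and platelets 2.89 and 5.29 CPM. The sums of several lists hid members that differed in opposite directions. In the dendritic cell list, Flt3 had 1122 and 421 counts and was 1.52-fold lower, whereas Itgax had 88 and 147 and was 2.93-fold higher. Among the markers of the sorted cells, Meis1 was 1.62-fold lower and Itgam 1.65-fold higher. Eosinophil, basophil and mast cell markers summed to 46.8 and 193 CPM, with Prg2 at 8 and 1149 counts and Cpa3 at 1 and 166, whereas Mcpt8 had 530 and 204 and was 1.48-fold lower. Stromal and endothelial markers summed to 108 and 293 CPM, with the collagen genes Col1a1 at 15 and 1327 counts, Col1a2 at 0 and 213 and Col3a1 at 0 and 264, whereas Pdgfrb had 1452 and 418 and was 1.98-fold lower. The part of these cell types in the differences of the 10 genes was not tested. In sorted bulk RNA, fewer cells of a type and less RNA per cell cannot be told apart.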

How the data were processed

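Gene expression was measured by RNA sequencing in 2 libraries, 1 per group. The deposited values are raw counts of reads for each gene symbol, in whole numbers. HISAT2 2.0.4 and the mm10 assembly are named, per the submitters' processing notes. The sources used here do not give the counting tool, annotation, strand setting or filters. Library totals were 14658620 (WT) and 9447894 (P2X1-KO).

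Counts were scaled by TMM in edgeR 4.0.16 under R 4.3.3, giving effective sizes of 15591519 and 8882591. CPM, RPKM (GENCODE M21 exon lengths, same assembly) and ratios were computed from these. Differences are on the log2(CPM + 0.5) scale, which understates those of low genes. Ratios carry exact conditional binomial (Clopper-Pearson) 95% intervals, counts exact Poisson intervals, and changes in within-library ratios exact intervals of the 2 by 2 table. They cover counting error only, since each group has 1 library. They may be too narrow even for that, because PCR copies are not independent molecules. A count of 0 was set against 3 counts. Genes were counted at a mean of at least 1 CPM. No p-value was computed. The calculation was tested on simulated data. Alternatives were total counts with and without the 20 most abundant genes, DESeq2 1.42.0 size factors, upper quartile, other floors, folds and pseudocounts, and subtraction of medians in 20 bins of exon length and 20 of GC content. Length and GC were known for 92.6% of counted genes.

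Named genes were all 10 members, P2rx1, Itgam, Kit, the other Toll-like receptors and adaptors, LPS and chaperone partners, up to 3 genes per direction and list by the interval bound nearest to no change, genes within 10 kb, and the 3 most similar genes of 2 members. Members and lists were chosen with earlier results of these data known. Of the listed genes, 1 was not found in the table. Protein sequences were not used here.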

Additional observations from a re-analysis of the deposited data

How the results depend on the processing

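With 1 library per group, leaving out a replicate was not possible. No paired analysis was possible because each group has 1 library and the labels carry no replicate numbers. Of the 10 genes, 6 were at least 2-fold higher under each of the 4 other scalings and the length and GC correction, 5 at a mean of at least 5 CPM, which leaves out Tlr9, 5 when the whole interval had to pass 2-fold, and 4 past 4-fold. Among all genes, the share at least 2-fold higher ran from 12.7% to 17.3% under those scalings and that correction. It was 12.1% at a mean of at least 5 CPM and 10.2% by the whole interval, and 6.34% were past 4-fold. Of the 10 genes, the count at least 2-fold lower was 0 in every setting run. Their median log2 difference ran from 1.22 with a pseudocount of 2 CPM to 1.58 with 0.1 CPM. Of the other pathway genes, 5 were at least 2-fold lower in the reported analysis, 9 with total counts, 9 with total counts without the 20 most abundant genes, and 10 with no floor on level. Among all genes, the shares at least 2-fold lower were 14%, 18.4%, 19.1% and 31.6% in the same order. The 2 total-count scalings moved the median of all genes by -0.17 and -0.19 on the log2 scale. The setting with no floor tested more genes of low count. With total counts, the median of the 10 genes was 1.31 against -0.23 for all genes. The shares of higher genes among all those at least 2-fold apart were 39.9% without the 20 most abundant genes, 58.4% with upper-quartile scaling and 35.7% with no floor. Depth limited Tlr7, Tlr8 and Tlr9 most, with 28, 21 and 21 counts in the WT-labelled library.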
